A study of Mus musculus with 17 samples.

Results

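The comparison set the early innate lymphoid progenitor (EILP), sorted from mouse bone marrow, against the common lymphoid progenitor (CLP) of the same tissue. It used the 1 array labelled EILP and both arrays labelled CLP, 3 of the 17 arrays in the series. The other 14 arrays cover 7 populations with 2 arrays each: stem cells (HSC), lymphoid-primed progenitors (LMPP), myeloid progenitors with and without surface Flt3 (flt3+ CMP and flt3- CMP), natural killer (NK) cells, early progenitors of the thymus (ETP) and DN3 thymocytes. Levels are log2 values from Affymetrix Mouse Gene 2.0 ST arrays, and 22180 genes with a probe set naming 1 gene were compared. All groups except NK, which the series' design text does not list, are described there as sorted from chimeras: CD45-congenic B6 CD45.1 mice received a lethal dose of radiation and marrow of TCF-1 GFP reporter donors, and were studied after 12 weeks. Both sides of the comparison therefore share the reporter allele, the irradiated host and the reconstitution. Cells were pooled from several mice to yield enough RNA, and neither the age of the mice nor the sorting gates are in the labels. Nothing there says whether the CLP arrays came from separate pools, so a p-value covers the spread between these samples alone, which may be technical. EILP has no replicate: its array and its population cannot be told apart, and the fitted test assumes that it varies like the arrays of the other groups. In sorted bulk samples, fewer cells of a type and less RNA per cell cannot be told apart either.

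CLP give rise mainly to B cells and keep some capacity to form NK cells, T cells and other lymphocytes. Their growth depends on interleukin 7, and part of the population already carries transcripts of the B cell program that the transcription factors E2A, EBF1 and PAX5 switch on in sequence, ending in the pre-B receptor that tests a newly rearranged antibody heavy chain. EILP are precursors of innate lymphoid cells and NK cells, which lack rearranged antigen receptors and rely on regulators such as Id2, Nfil3, Tox and the Zbtb16 product PLZF. Id2 protein binds E proteins and keeps them off DNA.

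The labels were first set against markers. The mean level of 6 measured CLP markers (Il7r, Flt3, Kit, Ly6d, Dntt and Cd27) was 8.33 and 8.58 in the CLP arrays and 6.64 in EILP, with the other 14 arrays at 6.63 to 8.73. The mean of 8 EILP markers (Id2, Tox, Nfil3, Zbtb16, Itga4, Itgb7, Kit and Cd7) was 7.26 in EILP and 6.15 and 6.20 in CLP, with the others at 5.97 to 7.71. The mean of each marker set was thus higher in the population it names, but neither stood above the range of the remaining arrays. Members of the CLP set did not all follow its mean. The log2 difference of EILP from CLP was -3.66 for Il7r, -3.39 for Ly6d, -3.08 for Dntt and -1.49 for Flt3. Cd27 was level (0.07), with EILP and both CLP arrays below the 14 others (7.49 to 9.27). Kit, which is in both sets, was higher in EILP (0.66). Surface interleukin 7 receptor and Flt3 are conventionally used to sort CLP, so differences in Il7r and Flt3 need not be independent of the sort. Tcf7, the gene behind the reporter, and Rag1 were not analysed here.

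Transcripts of several other cell types were at like levels on both sides. Neutrophil markers (Ltf, Camp, Ngp and S100a8) averaged 11.93 in EILP and 11.73 and 11.89 in CLP, above all other arrays (3.80 to 11.37). Macrophage markers (C1qa, Adgre1 and Csf1r) averaged 6.33 against 6.20 and 6.41, again above the others (4.65 to 5.78). Stromal markers (Cdh5 and Col1a1) were at 4.41 against 4.19 and 4.44, and the T cell markers Cd3e and Cd3g at 3.76 against 3.24 and 3.44, below the median of all values, 4.54. NK markers (Ncr1, Eomes, Klrb1c, Gzma and Prf1) were at 4.94 against 4.63 and 4.53, far from the NK arrays at up to 9.36. The Y-linked gene Eif2s3y was at 8.56 in EILP and at 8.56 and 8.74 in CLP, so the comparison does not cross the split by sex-linked transcripts in the series, whereas any comparison with all 7 other populations does. Red cell transcripts were also alike, with Slc4a1 at 7.32 in EILP and 7.62 and 7.88 in CLP, and Rhag at 8.43 against 8.21 and 8.23. Less alike was Siglech, the marker of plasmacytoid dendritic cells, at 5.94 in EILP and 6.64 and 7.46 in CLP. The mean of 4 mast cell and basophil markers was 6.63 against 6.19 and 5.75. Of its members, Cpa3 differed by 2.90 on the log2 scale, and Mcpt8, Ms4a2 and Fcer1a by 0.21, -0.28 and -0.18. Of all these markers 1, the mast cell gene Cpa3, passed the test between EILP and CLP. Their part in the results was not tested.

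Genes were called in a limma fit over all 17 arrays, at an adjusted p (Benjamini-Hochberg) under 0.05. By this rule 0.365% of genes were called: 72 fell in EILP relative to CLP (0.325%) and 9 rose (0.0406%). The balance was 52 lower and 36 higher when all probe sets, including those without a gene name, were tested, and 42 lower and 6 higher without CLP replicate 2. Over all genes the median difference was 0.05 on the log2 scale and the median standard error (SE) 0.24. The deposited values of EILP lay more than 1 log2 unit outside both CLP arrays at 194 genes, 41 above and 153 below, while the CLP arrays themselves differed by more than 1 at 223 genes. In all 81 called genes the gap from EILP to the nearer CLP array exceeded the difference between the CLP arrays, which held for 41.5% of all genes. The test that made the calls used these same values, so this is no separate check on them. Of the 72 lower genes, 31 fell at least 4-fold and 13 at least 8-fold, and of the 9 higher genes 3 rose at least 4-fold and 0 reached 8-fold. EILP lay below the median of all values in 20 of the 72, where the size of the fall is uncertain. Igll1, Emp1, Ebf1, Rag2, Slamf6 and Lef1, described below, are among them. Genes just short of the threshold, with an adjusted p between 0.05 and 0.1, numbered 22, of which 7 were higher in EILP.

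**Figure D1:**
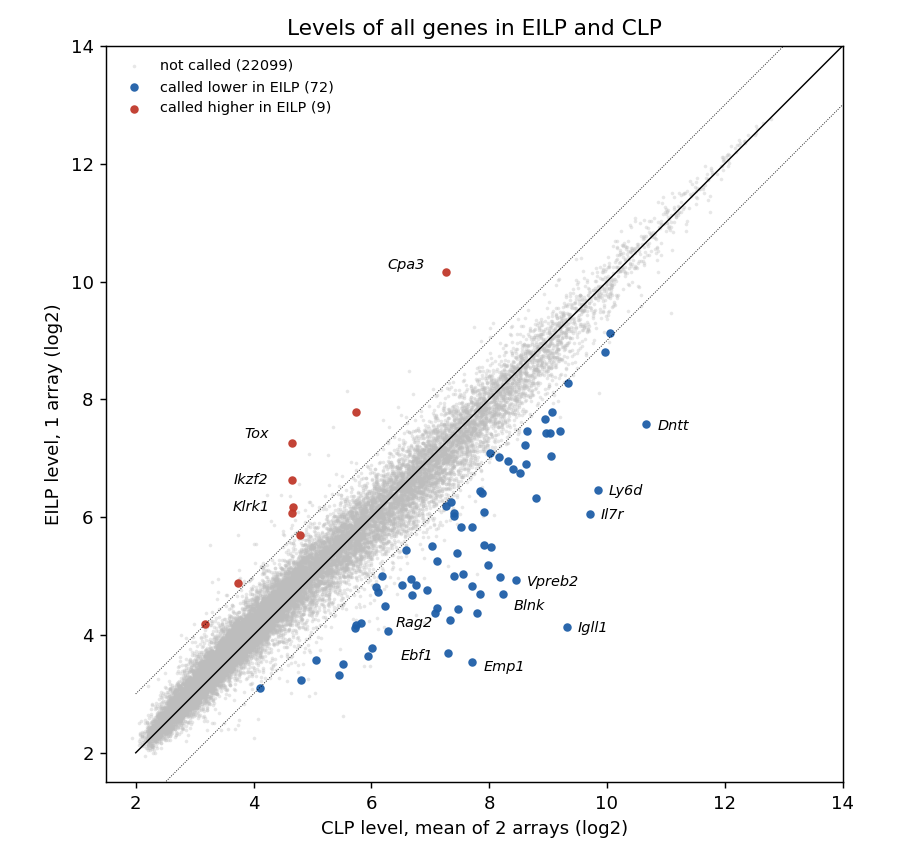
Level of each of 22180 genes in the EILP array (log2, vertical) against the mean of the 2 CLP arrays (log2, horizontal). The line marks equal levels and the dotted lines a 2-fold difference. The 72 genes called lower in EILP (blue) outnumber the 9 called higher (red), with Igll1 farthest below the line and Cpa3 and Tox farthest above it.

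The largest fall was in a gene of the pre-B receptor. Of 17 measured genes of this list, 6 fell, 0 rose and 13 were lower at an unadjusted p under 0.05 (limma), as were 4.7% of all genes. EILP lay below both CLP arrays in 14 of the 17, against 30.2% of all genes, and the list's median difference was -1.13. Igll1, which encodes the lambda5 part of the surrogate light chain, was at 9.0 and 9.63 in CLP and at 4.14 in EILP, a 36.2-fold fall (log2 difference -5.18 ± 0.34 SE, adjusted p = 9e-06). EILP sat inside the range of the 14 other arrays, 3.94 to 5.06, and the CLP arrays far above it. Vpreb2, which encodes the partner chain of lambda5, was at 8.66 and 8.26 in CLP and 4.93 in EILP, a difference of -3.53 ± 0.21 (adjusted p = 6.1e-06). EILP lay below all 14 other arrays for Vpreb2, whose lowest value was 5.06. Vpreb1, its close paralog, was flat at 2.99, 3.18 and 3.19. Near-identical copies can share probes, so how the signal divides between Vpreb1 and Vpreb2 is uncertain.

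Of the genes downstream some fell and others were not called. Blnk, which encodes the adaptor that couples the pre-B receptor to its kinases, was at 7.93 and 8.52 in CLP and 4.70 in EILP (-3.53 ± 0.25, adjusted p = 1.8e-05). Cd79b, which encodes one signalling chain of the B cell receptor, was at 7.85 and 8.11 in CLP and 5.18 in EILP (-2.79 ± 0.23, adjusted p = 8.3e-05). Here the populations stood on opposite sides of the rest: the 14 other arrays spanned 6.06 to 6.98, with both CLP arrays above and EILP below all of them. Cd79a, the partner chain, was at 6.06 and 7.45 in CLP and 4.34 in EILP. That difference of -2.42 ± 0.48 missed the threshold (adjusted p = 0.053), and the CLP arrays themselves lay far apart. Vpreb3, whose product is found with the pre-B receptor during its assembly, fell by 2.53 on the log2 scale (7.20 and 7.92 against 5.03, adjusted p = 0.0049). Ly6d, a surface marker of the B-biased fraction of CLP, was at 9.93 and 9.77 in CLP and 6.46 in EILP, a difference of -3.39 ± 0.31 (adjusted p = 0.00016). DN3 thymocytes also carried Ly6d, at 10.71 and 10.67, above CLP.

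Other early B genes gave smaller differences that did not pass: Cd22, an inhibitory receptor of B cells, at -1.25 (adjusted p = 0.062), Blk, a Src family kinase, at -1.03, Mzb1 at -1.13, Fcrla at -1.01 and the kinase gene Syk at -0.72. Btk, which encodes another kinase of the pathway, was level at 7.74 and 7.91 in CLP and 8.0 in EILP. Cd24a, whose product is on many progenitors, was high throughout, at 12.28 and 12.19 against 12.41. The calls of Cd79a and Cd22 depended on the processing. Cd79a passed without CLP replicate 1 (-3.12, adjusted p = 0.0051), and with arrays centred (adjusted p = 0.035), without dim genes (adjusted p = 0.027), with a variance trend (adjusted p = 0.029) and without NK and ETP (adjusted p = 0.041). Cd22 passed with arrays centred (adjusted p = 0.024), with quantile normalization (adjusted p = 0.045), with a variance trend (adjusted p = 0.044) and without NK and ETP (adjusted p = 0.046). Lyn and Cd72 were not analysed here.

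Transcription factors of the B lineage formed the second group. All 18 listed genes were measured, 7 fell, 0 rose and 12 were lower at an unadjusted p under 0.05 (limma), as were 4.7% of all genes. EILP lay below both CLP arrays in 16 of the 18, against 30.2% of all genes, and their median difference was -1.15. Ebf1, the factor that commits progenitors to the B lineage, was at 7.03 and 7.57 in CLP and 3.69 in EILP (-3.61 ± 0.39, adjusted p = 0.00064). EILP was within the range of the 14 other arrays, 3.20 to 4.98, and under the median of all values. Lef1, a partner of beta-catenin active in early B and T cells, was at 7.30 and 7.66 in CLP and 4.43 in EILP (-3.05 ± 0.28, adjusted p = 0.00016). Unlike Ebf1 it was also high elsewhere, at 8.78 and 8.82 in DN3 and 6.68 and 7.52 in NK.

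Pax5, which keeps B cells on their course, was at 6.26 and 7.62 in CLP and 4.77 in EILP (-2.17 ± 0.40, adjusted p = 0.037). Pou2af1, which encodes a coactivator of octamer-binding factors, was at 7.45 and 8.38 against 5.53 (-2.38, adjusted p = 0.024). Bach2, a repressor that restrains effector programs, was at 6.78 and 7.44 against 5.26 (-1.85, adjusted p = 0.021). In these 3 genes the CLP arrays were spread but did not overlap EILP, and each lost its call without CLP replicate 2, the array with more of it: Pax5 was then at -1.49 (adjusted p = 0.083), Pou2af1 at -1.91 (adjusted p = 0.12) and Bach2 at -1.52 (adjusted p = 0.12). The number of factors called was then 3, and 6 without replicate 1. Spib, an Ets family factor, fell by 1.57 on the log2 scale (adjusted p = 0.017) from 4.99 and 4.61 to 3.23, and missed the threshold without CLP replicate 1 (-1.38, adjusted p = 0.11). Foxo1, which drives Il7r and the recombinase genes, was at 6.62 and 6.57 in CLP and 5.45 in EILP (-1.14 ± 0.17, adjusted p = 0.012). It rests on 1 probe set: the lowest and highest differences of its probe sets were -1.14 and 0.00, and their mean gave -0.57 (adjusted p = 0.32). Its call was lost too without CLP replicate 1 (-1.12, adjusted p = 0.064) or replicate 2 (-1.17, adjusted p = 0.053).

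The remaining factors did not pass the test. Tcf3, which encodes E2A, was at 6.93 and 7.20 in CLP and 5.89 in EILP (-1.18, adjusted p = 0.089), and the other E protein genes Tcf4 (-0.71) and Tcf12 (-0.27) gave less. Tcf3 passed in the fit without NK and ETP (limma, adjusted p = 0.019). Mef2c was at -1.21, Irf4 and Ikzf3 each at -1.15, and Bcl11a at -0.64. Irf4 passed without CLP replicate 1 (-1.68, adjusted p = 0.031). Ikzf1 and Erg, which lymphoid and stem progenitors share, were at -0.31 and -0.15. Spib and Tcf4 are also transcribed in plasmacytoid dendritic cells. The difference in their marker Siglech was -1.11 (adjusted p = 0.56), with all 3 arrays above the 14 others, and its part in these differences was not tested. Zfp521, an antagonist of EBF1, was the only listed factor with EILP above both CLP arrays, at 5.16 against 4.52 and 4.92 (0.44, adjusted p = 0.70).

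The CLP arrays also differed from each other in B lineage genes, though not in 1 direction. CLP replicate 2 exceeded replicate 1 in 14 of the 18 B lineage factors, with a median difference of 0.34, in 11 of the 17 pre-B receptor and early B genes, with a median of 0.19, and in 48.2% of all genes. Vpreb2, Ly6d, Spib and Foxo1 were higher in replicate 1. The mean of 6 early B markers (Ebf1, Pax5, Cd79a, Cd79b, Vpreb1 and Igll1) was 6.53 and 7.26 in the CLP arrays, 4.22 in EILP and 4.26 to 5.08 in the others. By this mean EILP was farther from either CLP array than these were from each other, and it lay just below every other array. Since 4 of the 6 are genes called lower above, this describes the calls and is no separate check on them. Of these 6 markers, 4 were under the median of all values in EILP and 1 in CLP. Markers of mature B cells were low on both sides: Ms4a1 was at 3.09 and 2.91 in CLP and 3.03 in EILP, and Cr2 at 4.07 and 4.23 against 4.30.

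**Figure D2:**
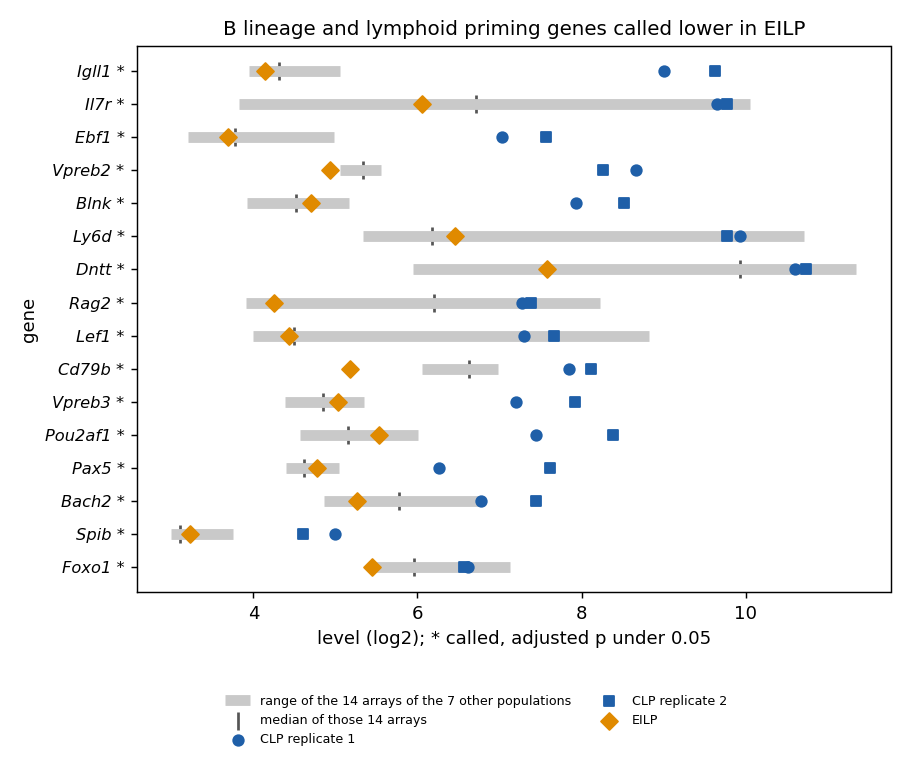
Levels (log2, horizontal) of 16 called B lineage and lymphoid priming genes (rows) in CLP replicates 1 and 2 (blue circle and square) and EILP (orange diamond). Grey bars span the 14 arrays of the 7 other populations and ticks mark their median. For Igll1, Vpreb2, Blnk and Ebf1 the CLP arrays lie above the whole grey bar, for Il7r, Dntt, Rag2, Lef1 and Ly6d within it, and EILP is left of both CLP arrays in every row.

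Promoters of the called genes were read for 2 motifs. One is that of early B cell factor, whose gene Ebf1 fell, and the other the octamer, whose binding factors use the Pou2af1 product as coactivator. Whether these factors act on the called genes was not tested. The sequences are RefSeq promoters of build GRCm38.p6, 250 bases before to 50 bases after the gene start, and 55 of the 72 lower genes had one. The early B cell factor motif, TCCC and GGGA with any 2 bases between them (a palindrome, so both strands read alike), was in 2 of the 55 (3.64%), Foxo1 and Chaf1a, and in the promoters of 287 of 27025 genes (1.06%). The octamer ATGCAAAT, or ATTTGCAT on the other strand, was in 4 of the 55 (7.27%), Blnk, Vpreb3, H2bc18 and Tspan13, and in those of 532 of 27025 genes (1.97%). The octamer was added after the promoters had been seen. The 3 promoters shown each held 1 match, so no matches overlap. Of the 13 called genes of the B lineage lists, 11 had a promoter. The early B cell factor motif was in 1 of the 11 (9.09%) and the octamer in 2 (18.2%). These 3 promoters are shown 5′ to 3′ with the match in capitals. The early B cell factor motif was also in the promoter of Cd22, which was not called. The 3 are Foxo1 at chr3:52268087-52268386 on the plus strand with the early B cell factor motif starting 92 bases before the gene start, Blnk at chr19:40994172-40994471 on the minus strand with the octamer 130 bases before it, and Vpreb3 at chr10:75948050-75948349 on the plus strand with the octamer 45 bases before it. A match is a run of letters and does not show that a protein binds there.
Foxo1 promoter: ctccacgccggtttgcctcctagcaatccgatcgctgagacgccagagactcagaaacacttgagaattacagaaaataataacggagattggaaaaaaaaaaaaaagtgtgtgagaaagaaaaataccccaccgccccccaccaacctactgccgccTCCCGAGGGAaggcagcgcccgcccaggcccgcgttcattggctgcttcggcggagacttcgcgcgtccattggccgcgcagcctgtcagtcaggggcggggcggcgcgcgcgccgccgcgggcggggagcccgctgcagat
Blnk promoter: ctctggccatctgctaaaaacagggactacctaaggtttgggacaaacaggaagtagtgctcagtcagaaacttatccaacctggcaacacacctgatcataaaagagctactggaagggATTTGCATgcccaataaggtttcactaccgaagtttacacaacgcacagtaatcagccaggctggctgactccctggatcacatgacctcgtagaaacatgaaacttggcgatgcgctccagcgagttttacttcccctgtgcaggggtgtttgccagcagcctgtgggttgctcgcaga
Vpreb3 promoter: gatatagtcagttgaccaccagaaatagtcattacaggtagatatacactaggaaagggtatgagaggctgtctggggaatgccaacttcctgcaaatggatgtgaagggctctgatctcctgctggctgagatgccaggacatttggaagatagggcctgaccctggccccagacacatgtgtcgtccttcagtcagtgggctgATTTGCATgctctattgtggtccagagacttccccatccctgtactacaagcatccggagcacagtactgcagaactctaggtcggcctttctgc

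Genes of lymphoid priming and antigen receptor recombination split. Of 12 measured, 3 fell and 0 rose (limma), and the median was -0.36. At an unadjusted p under 0.05, 4 were lower, against 4.7% of all genes. Dntt, which encodes the terminal transferase that adds bases at rearranging junctions, was at 10.60 and 10.74 in CLP and 7.58 in EILP (-3.08 ± 0.34, adjusted p = 0.00073). EILP was still above HSC (5.94 and 6.88) and NK (6.33 and 6.06) and equal to flt3- CMP (7.58 and 7.43), whereas LMPP, ETP and DN3 lay at 10.56 to 11.35 as CLP did. Rag2, which encodes one subunit of the recombinase, was at 7.27 and 7.39 in CLP and 4.25 in EILP (-3.07 ± 0.32, adjusted p = 0.00039). NK (3.93 and 3.91) and one HSC array (4.18) were lower still. Flt3, the cytokine receptor of early lymphoid progenitors, was at 7.43 and 8.09 against 6.27 and did not pass (-1.49 ± 0.43, adjusted p = 0.25). Notch1 (-0.41), Satb1 (-0.31), Sox4 (0.10), Cd27 (0.07), Ccr7 (0.03) and Ccr9 (0.01) gave small differences, none called.

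Within the interleukin 7 pathway 1 of 16 measured genes fell, 0 rose, and the median was -0.07. That gene was Il7r, the receptor's alpha chain, at 9.65 and 9.78 in CLP and 6.06 in EILP (-3.66 ± 0.34, adjusted p = 0.00016). The EILP value was below those of DN3 (9.65 and 10.05), NK (8.22 and 8.10) and ETP (7.02 and 7.95), close to flt3+ CMP (6.27 and 6.63), and above HSC (4.46 and 3.82). No gene acting after the receptor was called. Jak1 was at 0.08, Stat5a at -0.06, Stat5b at -0.09 and Mcl1 at 0.25. Cish, which encodes a feedback inhibitor induced by this signal, was at 6.20 and 5.69 against 5.02 (-0.92, adjusted p = 0.53). Bcl2, a survival gene, had its higher value in EILP, with 7.83 and 8.29 in CLP and 9.29 in EILP, and missed the threshold (1.23 ± 0.26, adjusted p = 0.090; 1.32 and adjusted p = 0.048 with quantile normalization). Il2rg and Jak3 were not analysed here.

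Innate lymphoid transcription factors followed the opposite order. Of 16 measured, 2 rose, 0 fell and 8 were higher at an unadjusted p under 0.05 (limma), as were 3.94% of all genes. EILP lay above both CLP arrays in 13 of the 16, against 42.9% of all genes, and the median difference was 0.59. Tox, a nuclear factor needed for NK and innate lymphoid development, was at 4.51 and 4.79 in CLP and 7.25 in EILP, a 6.07-fold rise (2.60 ± 0.31, adjusted p = 0.0014) whose size is uncertain because CLP replicate 1 lay under the median of all values. Both CLP arrays were at the bottom of the series for Tox, with flt3- CMP at 4.79 and 4.67, and EILP was beside NK at 7.23 and 6.91 and below ETP and DN3 at 7.66 to 8.60. Ikzf2, which encodes the Ikaros family factor Helios, was at 4.83 and 4.47 in CLP and 6.63 in EILP (1.98 ± 0.26, adjusted p = 0.0035). CLP stood apart from the series here, since all 14 other arrays were between 6.74 and 8.51 and EILP lay just below that range. The size of this difference is uncertain, since 1 CLP value lay under the median of all values.

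Other factors that define innate lymphoid precursors were not called. Id2 was at 7.57 and 7.58 in CLP and 8.44 in EILP (0.86 ± 0.28, adjusted p = 0.35), and NK was higher still at 10.07 and 9.92. Nfil3 was at 5.12 and 5.90 against 6.70 (1.19 ± 0.33, adjusted p = 0.22), the highest value of the 17 arrays. Zbtb16 was at 5.03 and 4.87 against 6.26 (1.31 ± 0.35, adjusted p = 0.21), level with one NK array at 6.24. For Id2, Nfil3 and Zbtb16 the EILP value lay outside the range of both CLP arrays. Rora, a nuclear receptor of innate lymphoid cells, gave 0.75 (adjusted p = 0.16), and Gata3 0.85 (adjusted p = 0.67). Factors of mature NK cells gave 0.43 (Tbx21) and 0.34 (Eomes), with EILP at 4.52 and 3.89. Maf (-0.38), Ahr (-0.42) and Ets1 (-0.71) had no higher level in EILP than in the CLP mean. Zfp683 was not analysed here.

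**Figure D3:**
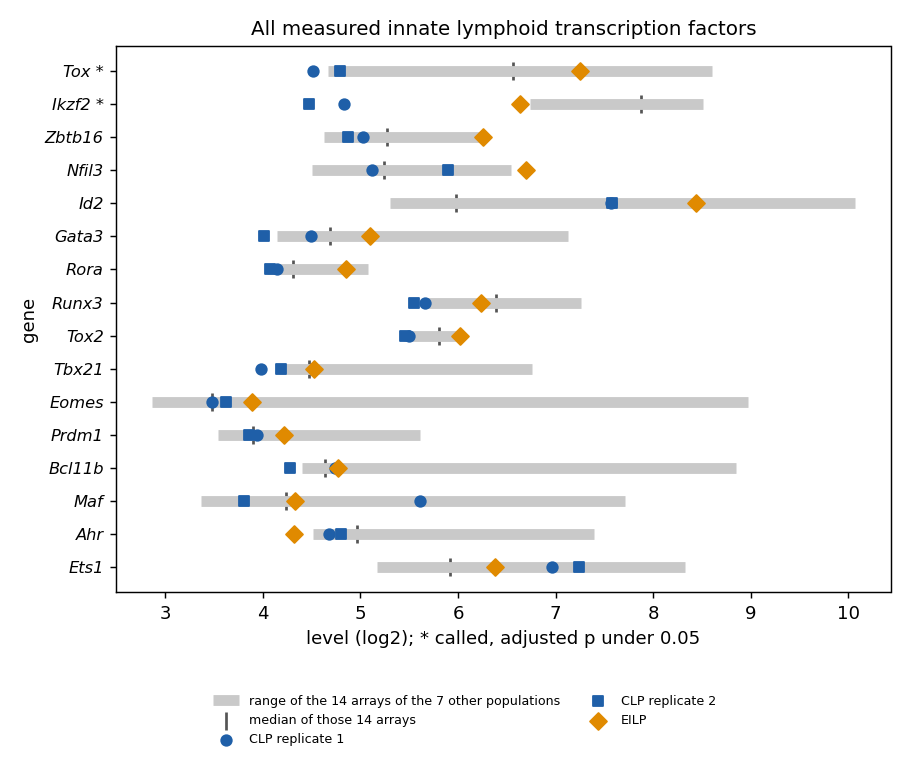
Levels (log2, horizontal) of all 16 measured innate lymphoid transcription factors (rows) in CLP replicates 1 and 2 (blue circle and square) and EILP (orange diamond). Grey bars span the 14 arrays of the 7 other populations, ticks mark their median and asterisks the 2 called genes, Tox and Ikzf2. EILP lies to the right of both CLP arrays in 13 rows, and both CLP arrays lie left of the grey bar for Ikzf2.

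Receptors and surface proteins of innate lymphoid cells gave no call. Of 21 measured, 0 passed and 8 were higher at an unadjusted p under 0.05 (limma), as were 3.94% of all genes. EILP lay above both CLP arrays in 17, against 42.9% of all genes, with a median of 0.36. Cd7, carried by NK and T progenitors, was at 5.40 and 5.15 in CLP and 6.55 in EILP (1.28 ± 0.34, adjusted p = 0.21), with NK at 9.41 and 10.15. The cytokine receptor genes Il12rb2 (1.10, adjusted p = 0.12), Il2rb (1.09, adjusted p = 0.16) and Il17rb (1.07, adjusted p = 0.39) followed. For Il12rb2 both populations lay below all 14 other arrays, with CLP at 4.63 and 5.22, EILP at 6.03 and the others at 6.72 to 9.40. Il2rb was at 4.92 in EILP, far from NK at 9.68 and 10.32. Il17rb was at 6.18 in EILP, below ETP (7.42 and 7.64) and DN3 (9.11 and 8.46). Cxcr6, a chemokine receptor of innate lymphoid precursors, gave 0.87, Itga4 0.57 and Itgb7, its partner in the integrin alpha4 beta7, 0.18. Il2ra (0.02) and Cd226 (0.05) were level, and Thy1 was at -0.25. Il1rl1 was not analysed here.

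NK cell and cytotoxic genes held 1 rise and 1 fall among 20 measured, with a median of 0.40. Klrk1, the gene of the activating receptor NKG2D, was at 4.62 and 4.73 in CLP and 6.17 in EILP (1.49 ± 0.27, adjusted p = 0.033). EILP was second only to the NK arrays at 10.94 and 10.96, and the remaining arrays reached 4.60. The call was lost without CLP replicate 1 (1.44) or replicate 2 (1.55). It was also lost with arrays centred, with only marrow arrays (limma, adjusted p = 0.058) and without NK and ETP (adjusted p = 0.053). Ccl5, a chemokine of NK and T cells, was at 7.69 and 7.78 against 9.23 and did not pass (1.49 ± 0.46, adjusted p = 0.31). Ncr1 (0.72), Prf1 (0.63), Klrb1c (0.63) and Nkg7 (0.63) were not called, nor were Gzmb (0.00), Gzma (-0.50) and Klrd1 (-0.72). Slamf7, a receptor of NK and plasma cells, fell by 2.47 on the log2 scale, from 8.64 and 8.94 to 6.33 (adjusted p = 0.026), and missed the threshold without CLP replicate 1 (-2.62, adjusted p = 0.069) or replicate 2 (-2.32, adjusted p = 0.12).

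Slamf7 belongs to the SLAM family of adhesion receptors, in which 2 of 9 measured genes fell and 0 rose, with a median of -0.11. The other was Slamf6, at 7.89 and 7.69 in CLP and 4.38 in EILP (-3.41 ± 0.30, adjusted p = 0.00012). CLP was level with NK (7.69 in both arrays) and below DN3 (8.48 and 8.65), and EILP lay with HSC, LMPP and the myeloid progenitors (3.74 to 5.0). Its probe sets ranged from -3.41 to -0.83. Cd48 (-0.17), Ly9 (-0.25), Cd84 (0.26) and Cd244a (0.41), 4 other members expressed above the median of all values, were not called.

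Cpa3 rose most. It encodes carboxypeptidase A3, a granule protease of mast cells and basophils that some progenitors also transcribe. Its level was 7.58 and 6.94 in CLP and 10.16 in EILP, 7.47-fold higher (2.90 ± 0.41, adjusted p = 0.0057). The value resembled those of flt3+ CMP (10.21 and 9.92), flt3- CMP (10.82 and 10.81), ETP (10.52 and 10.25) and DN3 (9.70 and 10.28), whereas CLP lay with HSC, LMPP and NK (6.54 to 7.96). Of 13 mast cell and basophil genes measured it was the 1 that rose, 0 fell, and the median was 0.05. Mcpt8 was at 7.85 and 7.99 against 8.13, Ms4a2 at 5.33 and 4.78 against 4.77, Fcer1a at 4.01 and 3.27 against 3.46, and Gata2 at 4.96 and 4.36 against 4.81. Cpa3 is among the 4 markers whose mean is given above, with the 14 other arrays at 5.05 to 7.13. The part of such cells in the Cpa3 result was not tested. Kit, shared with progenitors, was at 6.55 and 6.53 against 7.20 (0.66, adjusted p = 0.59).

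The other higher genes named were Med12l, which encodes a relative of a Mediator subunit, at 4.78 and 4.53 in CLP and 6.07 in EILP (1.41, adjusted p = 0.047), Wnt9a at 3.57 and 3.89 against 4.87 (1.15, adjusted p = 0.032), and the olfactory receptor gene Olfr772 at 3.36 and 2.99 against 4.19 (1.01, adjusted p = 0.039). Sizes are uncertain for all 3. Both CLP arrays lay under the median of all values, 4.54, for Wnt9a and Olfr772, and CLP replicate 2 did for Med12l. For Olfr772 the EILP value lay under it too. The calls of Med12l, Wnt9a and Olfr772 were lost with quantile normalization (limma, adjusted p = 0.051, 0.054 and 0.069) and with only marrow arrays (adjusted p = 0.062, 0.056 and 0.069). Those of Med12l and Olfr772 were also lost with arrays centred (adjusted p = 0.067 and 0.063). Without CLP replicate 2 these 3 lost their calls: Med12l was then at 1.28, Wnt9a at 1.30 and Olfr772 at 0.83. Without replicate 1, Med12l was at 1.54 (adjusted p = 0.11) and Wnt9a at 0.99 (adjusted p = 0.19).

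T lineage genes gave 0 calls in 15 measured, with a median of 0.20. At an unadjusted p under 0.05 (limma) 4 were higher, against 3.94% of all genes. The largest difference was Trat1, a T cell adaptor, at 3.37 and 3.23 in CLP and 4.39 in EILP (1.09, adjusted p = 0.22), which passed when only marrow arrays were fitted (adjusted p = 0.022). Cd3g was at 3.16 and 3.36 against 4.18, while Cd3e was at 3.32 and 3.52 against 3.35. All of these lie below the median of all values. Of 8 Notch target genes 0 were called, and at an unadjusted p under 0.05 (limma) 1 was lower and 1 higher. Those were Hes1, at 5.58 and 5.43 in CLP and 4.71 in EILP (-0.80, adjusted p = 0.11), and Dtx1, at 4.34 and 4.43 against 4.87 (0.48, adjusted p = 0.51).

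Among the largest falls were genes outside the lymphoid lists. Emp1, which encodes an epithelial membrane protein also found on hematopoietic progenitors, was at 8.05 and 7.38 in CLP and 3.54 in EILP (-4.18 ± 0.65, adjusted p = 0.013). It varied widely in the series, from 3.42 to 9.63, with LMPP and ETP above CLP and one HSC and one flt3- CMP array as low as EILP. Its probe sets ranged from -4.18 to -1.0, and the call was lost without CLP replicate 1 (-3.84, adjusted p = 0.078). Akap12, a scaffold protein of protein kinase A, was at 7.91 and 7.78 against 4.69 (-3.15, adjusted p = 0.0035), and Cecr2, a chromatin remodelling factor, at 8.01 and 7.41 against 4.83 (-2.88, adjusted p = 0.00038). For Akap12 and Cecr2 both CLP arrays exceeded all 14 others, which reached 6.08 and 5.46. Sdc1, the plasma cell and pro-B cell proteoglycan CD138, was at 7.50 and 7.41 against 5.39 (-2.07, adjusted p = 0.024), the 1 call among 12 mature B and plasma cell markers. LMPP lay above CLP for Sdc1, at 7.76 and 7.69, and its probe sets ranged from -2.07 to -0.34. Its call was lost without CLP replicate 1 (-2.03, adjusted p = 0.11) or replicate 2 (-2.11, adjusted p = 0.094). Jchain, of the same list, was at 7.34 and 6.67 against 6.35 and did not pass (-0.65, adjusted p = 0.50).

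Of 8 histone and linker histone genes measured, 1 fell, 0 rose and the median was -0.70. H1f1, a linker histone gene, was at 8.35 and 8.01 in CLP and 4.98 in EILP (-3.19 ± 0.32, adjusted p = 0.00033). H2bc12 (-2.13, adjusted p = 0.28), H1f5 (-1.62, adjusted p = 0.49) and H1f3 (-0.96, adjusted p = 0.17) did not pass, while H1f2 (-0.28), H2az1 (-0.17) and H4c1 (0.03) were close to level. H1f5 passed in the fit without NK and ETP (limma, adjusted p = 0.011). H2bc18, a histone gene outside the list, also fell, from 8.25 and 7.59 in CLP to 6.09 in EILP (-1.83, adjusted p = 0.023). Genes of mitosis gave smaller differences. In 18 of 19 EILP lay below both CLP arrays, against 30.2% of all genes. At an unadjusted p under 0.05, 6 were lower, against 4.7% of all genes. After adjustment 0 passed (limma), and the median was -0.44. Kif20a, a kinesin of cytokinesis, was at 7.53 and 7.42 against 6.52 (-0.96, adjusted p = 0.16), whereas Mki67, the common proliferation marker, was at 10.70 and 10.93 against 10.56 (-0.26, adjusted p = 0.80). Of 19 DNA replication genes 0 passed and 4 were lower at an unadjusted p under 0.05, against 4.7% of all genes, with a median of -0.34. Mcm3, a subunit of the replicative helicase, was lowest at -1.05 (adjusted p = 0.32), and Rrm2, which encodes ribonucleotide reductase, was level (0.02).

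Of 16 immediate early and stress genes 1 fell, 0 rose and the median was -0.28. Hspa1a, which encodes an inducible heat shock protein, was at 8.04 and 7.73 in CLP and 6.42 in EILP (-1.47 ± 0.25, adjusted p = 0.022). All 3 arrays exceeded the 14 others, at 3.95 to 5.24, and the call was lost without CLP replicate 1 (-1.31, adjusted p = 0.12). Its neighbour Hspa1b, nearly identical in sequence, was at 7.87 and 7.48 against 6.99 (-0.68, adjusted p = 0.94), so the signal of either is uncertain. Jun was at -1.12 (adjusted p = 0.48) and Fos at -0.64. Of 11 interferon response genes 0 passed and 1, Ifit2, was lower at an unadjusted p under 0.05 (limma), at 6.16 and 5.89 against 4.84 (-1.18, adjusted p = 0.23).

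In 9 further lists no gene was called and the medians were 0.00 to 0.28, beside 0.05 over all genes. Limma called 0 of 16 stem and multipotent progenitor genes (median 0.13), 0 of 13 megakaryocyte and erythroid genes (0.06), 0 of 15 neutrophil granule genes (0.12) and 0 of 14 monocyte and macrophage markers (0.28). It also called 0 of 13 dendritic cell markers (0.00), 0 of 10 mature T cell markers (0.11), 0 of 10 stromal and endothelial markers (0.12), 0 of 10 chemokine receptors (0.14) and 0 of 12 integrins (0.09). At an unadjusted p under 0.05 none of these 9 lists held more than 2 genes in either direction. Of 4 sex-linked genes (median -0.03) and 3 red cell genes, limma called 0, with 1 sex-linked gene higher at an unadjusted p under 0.05.

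**Figure D4:**
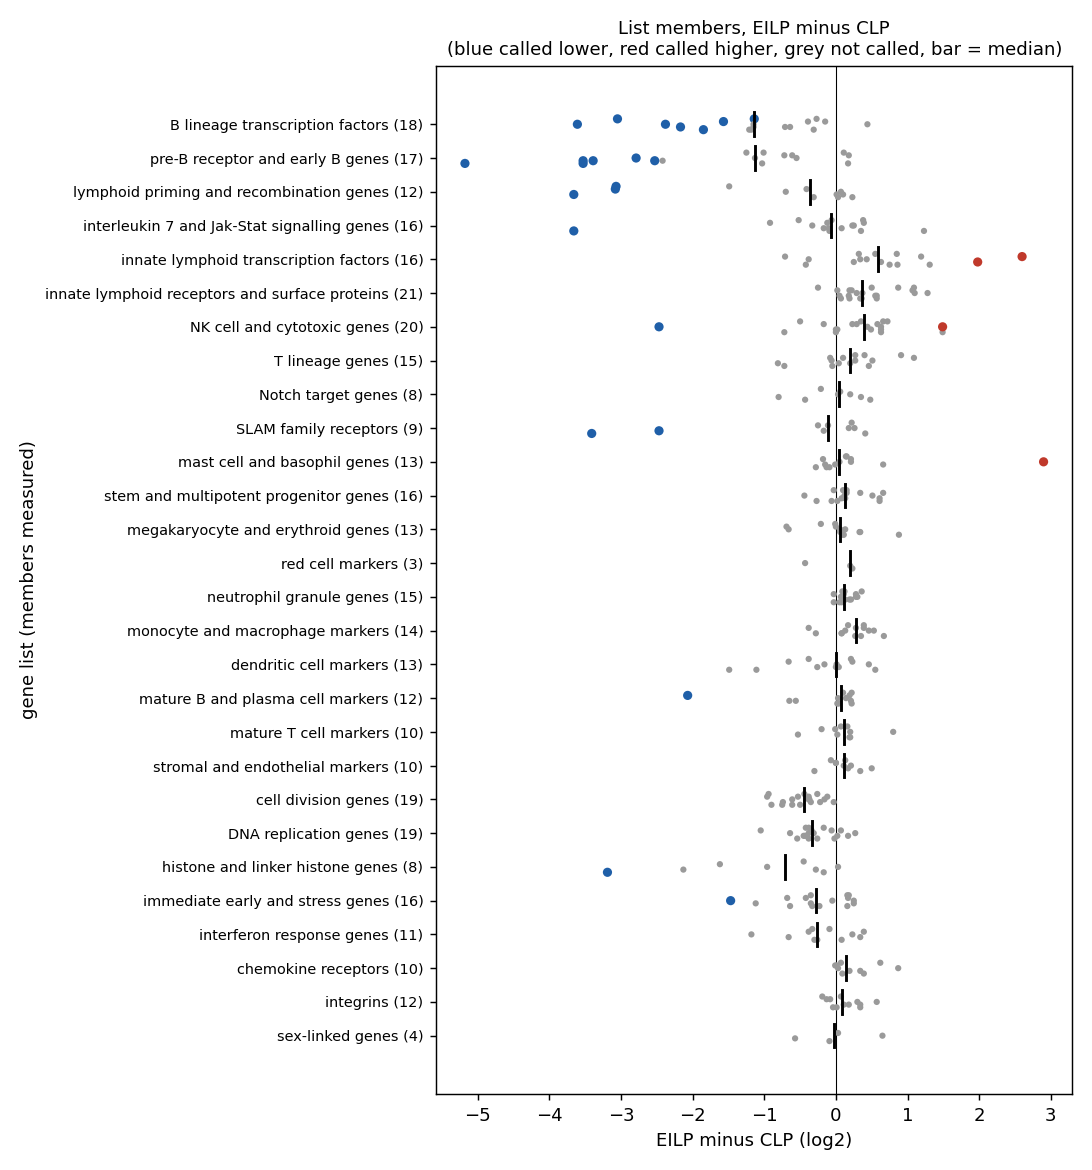
Difference between EILP and CLP (log2, horizontal) of every measured member of 28 gene lists (rows, with the number measured). Each point is a gene, blue if called lower, red if called higher and grey if not called, and the black bar is the median of the list. B lineage factors and pre-B receptor genes reach farthest to the left, with medians of -1.15 and -1.13, and innate lymphoid factors have the highest median, 0.59.

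The 81 called genes were then placed against the mean of the 7 other populations, to see which of both populations differed from the rest. These contrasts share the EILP and CLP arrays with the comparison above, cross the Y-linked split and differ in neutrophil transcripts, and so describe the called genes without supporting them. Against the others, 5.41% of all genes were higher and 3.19% lower in CLP, and 3.19% were higher and 2.57% lower in EILP. Of the 72 lower genes, CLP alone passed in 35, EILP alone in 20, and both in 17, of which 13 had CLP above and EILP below the others. Without CLP replicate 1 these counts were 30, 8 and 12, and without replicate 2 they were 23, 11 and 8. Both CLP arrays exceeded all 14 others in 25 of the 72 (3.48% of all genes), and EILP was under all 14 in 25 (8.96%). Both CLP arrays were under all 14 in 0 of the 72 (2.98% of all genes), and EILP was above all 14 in 3 (7.9%). The 72 were selected for CLP above EILP, which by itself favours CLP on top and EILP at the bottom. These counts therefore only describe the called genes.

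Of the 13 called members of the B lineage factor and pre-B receptor lists, 10 were genes in which CLP alone passed and 3 had the populations on opposite sides. Igll1 was 4.96 ± 0.21 above the others in CLP and -0.22 ± 0.29 from them in EILP, Blnk 3.72 and 0.18, and Ebf1 3.41 and -0.20. Il7r belonged to this class as well, at 2.97 and -0.69. The 13 genes with the populations on opposite sides included the recombination genes Rag2, at 1.43 and -1.64, and Dntt, at 1.68 and -1.40. Lef1 was at 2.08 and -0.97, Slamf6 at 2.28 and -1.13, and Cd79b at 1.34 and -1.45. Several of the 13 were in none of the gene lists. Foxo1 was in the same class at 0.58 and -0.56, and H1f1 at 1.26 and -1.93.

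None of the 20 lower genes in which EILP alone passed was a member of the B lineage lists. Emp1 was at 0.95 in CLP and -3.22 in EILP against the others, and Tspan6, a tetraspanin, at -0.41 and -2.71. Tspan6 was at 5.85 and 6.05 in CLP and 3.65 in EILP, with the 14 others at 4.76 to 7.34. Several were genes that most cells use. Xrcc6, which encodes the Ku70 subunit that binds broken DNA ends, was at 7.40 and 7.38 in CLP and 6.01 in EILP, below all others at 6.35 to 8.83 (-1.38 ± 0.20, adjusted p = 0.006). Smarca4, the ATPase of the BAF chromatin remodeller, was at 8.91 and 9.24 against 7.79 (-1.29, adjusted p = 0.030), and St13, a cochaperone of Hsp70, at 9.0 and 8.89 against 7.67 (-1.27, adjusted p = 0.014). Wee1, the kinase that restrains mitotic entry, was at 7.32 and 7.22 against 6.20 (-1.08, adjusted p = 0.032). Each of Tspan6, Xrcc6, Smarca4, St13 and Wee1 was lower in EILP than in all 16 other arrays. With 1 EILP array, a low value of that array and of the population cannot be told apart. Tspan6, Xrcc6, Smarca4, St13 and Wee1 fall outside the naming rule and were chosen after their values were seen.

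Of the 9 higher genes, CLP alone passed in 4, EILP alone in 2 and both in 3. Tox and Cpa3 were of the first kind, with CLP at -1.96 and -1.77 from the others and EILP at 0.64 and 1.13. Klrk1 was of the second kind, at -0.43 in CLP and 1.07 in EILP, where the NK arrays raise the mean of the others. Ikzf2 passed in both on the same side, at -3.12 in CLP and -1.15 in EILP.

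**Figure D5:**
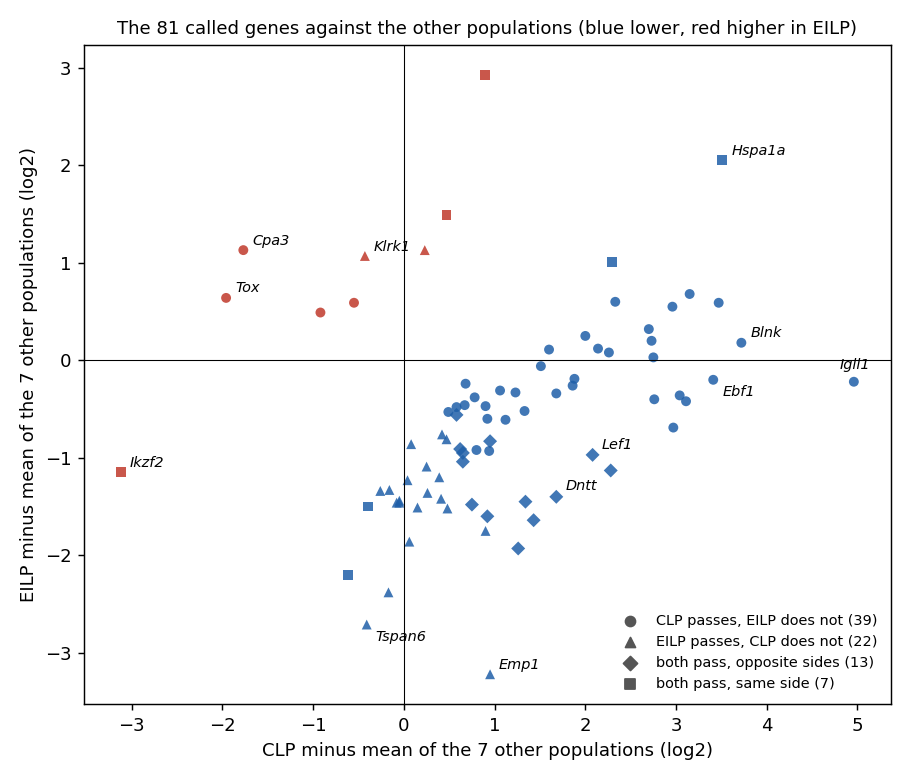
The 81 called genes by their difference from the mean of the 7 other populations (log2) in CLP (horizontal) and in EILP (vertical), with blue for lower and red for higher in EILP than in CLP. Symbols show which contrast passed: CLP only (circles, 39), EILP only (triangles, 22), both on opposite sides (diamonds, 13) or both on the same side (squares, 7). Igll1, Blnk and Ebf1 lie far right near 0 on the vertical axis, and Emp1 and Tspan6 far below 0 near the middle of the horizontal axis.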

How the data were processed

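The authors deposited 1 table for all 17 arrays with 41345 probe sets, and its values were read as log2 levels from their range. Per the labels' protocols, RNA was extracted with Trizol and amplified and biotin-labelled with NuGEN kits, and per the submitters' processing notes Affymetrix Expression Console was used, with the version and algorithm not given in the sources used here. Array medians over genes were 4.45 to 4.62. Depth does not apply to arrays, and their number limits the precision.

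Probe sets were named from the platform annotation. The 23521 with 1 symbol were used, 1814 with several symbols and those without a symbol were left out, and for 1082 genes with more than 1 probe set the one with the highest mean was kept, leaving 22180 genes. A limma 3.58.1 model in R 4.3.3 (lmFit and eBayes) with 1 mean per population was fitted to all 17 arrays (8 residual and 5.33 prior degrees of freedom). Tests were two-sided, and p-values were adjusted over all genes within a contrast. A difference is a difference of log2 levels. The SE comes from the fit. The contrast of EILP or CLP with the mean of the 7 other populations used the same fit. Promoters were matched by symbol.

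The genes named by rule were the 15 largest called differences in each direction of at least 2-fold with EILP outside both CLP arrays (predicted genes, small RNA genes and antigen receptor segments left out), all called members of 28 gene lists (349 of 384 members measured), uncalled members with a log2 difference of at least 1, and the defining markers. Other list members, the motif genes and 5 genes named as low in EILP were named after their values were seen. The comparison, its members and its lists were chosen with earlier results of these data known. The model was tested on simulated data. The alternatives changed the normalization, the filter on dim genes, the probe set rule, the variance model, the arrays in the fit and the CLP replicates.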

Additional observations from a re-analysis of the deposited data

How the results depend on the processing

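The 81 calls became 87 with each array centred on its median (5 higher), 67 with quantile normalization, 88 over all probe sets (36 higher, 52 lower), 63 with only bone marrow arrays (5 higher) and 97 without NK and ETP. With only EILP, CLP and DN3 they were 22 (2 higher, 20 lower). Between 48 and 57 were called without a CLP replicate, 6 to 7 higher and 42 to 50 lower. A fit of the 3 EILP and CLP arrays alone, with 1 residual degree of freedom, called 0 genes by limma (2474 at an unadjusted p under 0.05). In the other 11 alternatives that test 1 value per gene, 16 genes stayed called in each: Akap12, Blnk, Cd79b, Cecr2, Dntt, H1f1, Igll1, Il7r, Lef1, Ly6d, Myl10, Rag2, Rnase12, Slamf6 and Vpreb2 lower, and Tox higher. In the alternatives that test 1 value per gene, the 81 genes kept their sign where tested. Among probe sets Lgr5 is an exception, called at -1.49 with another probe set at 0.19.

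The 3-array fit called 0 members of each list. The EILP, CLP and DN3 fit left 2 B lineage factors and 1 innate lymphoid factor, and leaving out a CLP replicate left 3 to 6 B lineage factors, 6 to 7 pre-B receptor genes, 3 priming genes and 2 innate lymphoid factors. Without a CLP replicate, 925 to 980 genes differed between CLP and the 7 other populations, in place of 1907, and 1229 for EILP, in place of 1278. Of the lower genes, CLP alone then passed in 23 to 30, EILP alone in 8 to 11, and both in 8 to 12. The causes were not tested beyond the fewer arrays in these fits. Centring moved the median difference of all genes from 0.05 to -0.05.

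Uncalled differences near 0 turned sign. With arrays centred, Cd27 was at -0.02, Camp at -0.01, Ngp at -0.04 and C1qa at -0.02. Ngp was at 0.00 with quantile normalization. Leaving out a CLP replicate moved Cd27 between -0.32 and 0.46, Ngp between -0.10 and 0.20, C1qa between -0.09 and 0.24, Fcer1a between -0.55 and 0.19 and Cd3e between -0.18 and 0.03.

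No paired analysis was possible because EILP carries no replicate number. The contrasts with the 7 other populations were not run in the fits that leave out whole populations. A level below 4.54, the median of all values, limits what can be read from the size of a difference.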
